A study of Mus musculus with 25 samples.

Results

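The miR-135 family of the mouse is represented here by 3 miRNA precursors, the rows named mmu-mir-135a-1, mmu-mir-135a-2 and mmu-mir-135b among the 1193 precursor hairpins of the deposited count table (the prefix for the mouse is left out below). The rows were taken by name, and the family was picked for study with its levels across ages already known, so its age values are given as a description, with standard errors, and no p-value of a member across ages is used as support. Small RNAs had been sequenced from brain hemispheres of 25 male C57BL/6 mice, with 5 animals at each of 2, 9, 15, 24 and 30 months of age. No transgene or treatment is given in the labels. A hemisphere holds many cell types, and in such bulk RNA fewer cells of a type and less RNA per cell cannot be told apart.

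A miRNA is cut from a hairpin precursor, loaded into an Argonaute protein and guided to messenger RNAs mainly by its seed, a short stretch near its 5′ end. In mouse neurons miR-135 is known to restrain the serotonin transporter and the serotonin receptor 1a, to promote axon growth through repression of Klf4 and to act on complexins during long-term depression of synapses. Outside the nervous system miR-135b is known from bone and tumour biology.

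The sequences below show what the members share and what could divide their reads. They come from RefSeq on GRCm38.p6, are written 5′ to 3′, and matched all 3 precursors by gene symbol. In the mature miRNAs the capitals mark the seed, bases 2 to 8. mir-135a-1 and mir-135a-2 give the same mature 5p arm, while their 3p arms differ.
miR-135a-5p: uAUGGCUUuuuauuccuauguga
miR-135a-1-3p: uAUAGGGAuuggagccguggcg
miR-135a-2-3p: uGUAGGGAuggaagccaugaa
miR-135b-3p: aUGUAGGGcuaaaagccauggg
In the hairpins the capitals mark the letters AUGGCUU of the 5p seed, which occurred once in each.
mir-135a-1 hairpin: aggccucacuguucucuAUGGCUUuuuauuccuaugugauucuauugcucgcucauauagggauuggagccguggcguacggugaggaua
mir-135a-2 hairpin: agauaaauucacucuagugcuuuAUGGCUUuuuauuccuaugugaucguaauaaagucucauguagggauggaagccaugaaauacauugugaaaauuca
mir-135b hairpin: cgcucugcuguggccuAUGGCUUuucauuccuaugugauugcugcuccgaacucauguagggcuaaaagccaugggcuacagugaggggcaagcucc

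Lined up at the seed, bases 16 to 38 of the mir-135b hairpin differed from the 23 bases of miR-135a-5p at 1 position, U11C, counted from 1 at the 5′ end of miR-135a-5p. Over the whole hairpins, 67.0% of the columns of a global alignment were identical between mir-135a-1 and mir-135a-2, 67.6% between mir-135a-1 and mir-135b, and 63.3% between mir-135a-2 and mir-135b. The 3p arms carried different seeds, as the capitals above show. The letters of the 5p arm are the same at mir-135a-1 and mir-135a-2, whereas their 3p arms differ.

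The 3 hairpins sit on separate chromosomes (GRCm38, annotation GENCODE M21). The hairpin of mir-135a-1 is at chr9:106154124-106154213, plus strand, in an intron of the antisense transcript D030055H07Rik and opposite exonic sequence of Glyctk. The hairpin of mir-135a-2 is at chr10:92072086-92072185, minus strand, in an intron of Rmst, a long noncoding RNA known from neural differentiation. The hairpin of mir-135b is at chr1:132198088-132198184, plus strand, in an intron of Lemd1 and of the overlapping model AC124108.1.

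All 3 members passed the filter on low counts, which kept 425 precursors. Over the 25 libraries mir-135a-1 had 582 to 1415 reads, mir-135a-2 had 623 to 1478 reads and mir-135b had 169 to 459 reads. Levels are given in CPM, for which edgeR divides each count by the library's total and its TMM scaling factor. The mean level over all libraries was 153 ± 21.0 CPM for mir-135a-1, 163 ± 21.0 CPM for mir-135a-2 and 52.4 ± 7.54 CPM for mir-135b (SD, n = 25), ranks 198, 195 and 248 of the 425. Per base of hairpin (90, 100 and 97 bases) the mean level was 1.70 CPM for mir-135a-1, 1.63 CPM for mir-135a-2 and 0.540 CPM for mir-135b. Reads come from the arms and not from the whole hairpin, so this scale does not order the mir-135a copies. By CPM the family is thus of middle abundance in these libraries, with mir-135b the lowest member.

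Library totals ran from 4837679 to 5964936 counts among the animals of 2 months, 3779993 to 7338590 at 9 months, 3960225 to 8478013 at 15 months, 5630405 to 7156729 at 24 months and 4084332 to 9524043 at 30 months. The column names give 6 sequencing lanes, and lane 3 holds 1 library of each age. The neuron-enriched markers, among them the mir-124 and mir-9 copies, summed to 80848 to 99447 CPM at 30 months and 89366 to 99241 CPM at 2 months, and none of the 18 was at 0. The titles give each library its own animal number.

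Mean levels of mir-135a-1 differed by less than their SD from 2 to 24 months and were lower at 30 months. The 5 animals of 2 months had 125, 158, 162, 187 and 147 CPM. Those of 9 months had 167, 149, 171, 158 and 149.7 CPM, and those of 15 months 154, 155, 134, 182 and 172 CPM. Means were 156 ± 22.3 CPM at 2 months, 159 ± 10.04 CPM at 9 months and 159 ± 18.4 CPM at 15 months (SD, n = 5). These 3 ages overlapped throughout. The animals of 24 months had 143, 156, 158, 146 and 195 CPM, with a mean of 159.6 ± 20.6 CPM. The animals of 30 months had 163, 141, 108, 119.8 and 119 CPM, with a mean of 130.1 ± 21.8 CPM. At 30 months replicates 3, 4 and 5 lay below every animal of the other 4 ages, while replicates 1 and 2 lay within their range.

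mir-135a-2 followed the same course at a slightly higher level. Its levels were 141, 164, 178, 191 and 145 CPM at 2 months, 185, 151, 178, 163 and 165 CPM at 9 months, and 164, 161, 138, 189.9 and 171 CPM at 15 months. They were 168, 173, 176, 161 and 212 CPM at 24 months, and 163, 144, 129.6, 128 and 129.7 CPM at 30 months. Again replicates 3, 4 and 5 of 30 months lay below every younger animal, and replicate 1 of 30 months overlapped the 24-month animals. Means were 164 ± 21.4 CPM at 2 months, 168 ± 13.5 CPM at 9 months, 165 ± 18.7 CPM at 15 months, 178 ± 19.8 CPM at 24 months and 139 ± 14.8 CPM at 30 months (SD, n = 5).

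mir-135b, whose hairpin differs at 1 letter of that arm, showed the lower level at 30 months as well. It had 43.9, 51.1, 66.1, 57.2 and 50.3 CPM at 2 months, 57.9, 57.0, 58.5, 44.3 and 52.6 CPM at 9 months, and 50.9, 60.4, 47.1, 59.0 and 57.2 CPM at 15 months. It had 54.7, 57.6, 52.2, 54.5 and 62.6 CPM at 24 months, and 48.8, 49.5, 35.1, 44.7 and 36.9 CPM at 30 months. Every 30-month animal lay below every 24-month animal, whereas the 30-month range overlapped that of 2 months. Means were 53.7 ± 8.40 CPM at 2 months, 54.0 ± 5.93 CPM at 9 months, 54.9 ± 5.68 CPM at 15 months, 56.3 ± 4.01 CPM at 24 months and 43.0 ± 6.69 CPM at 30 months (SD, n = 5).

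**Figure D1:**
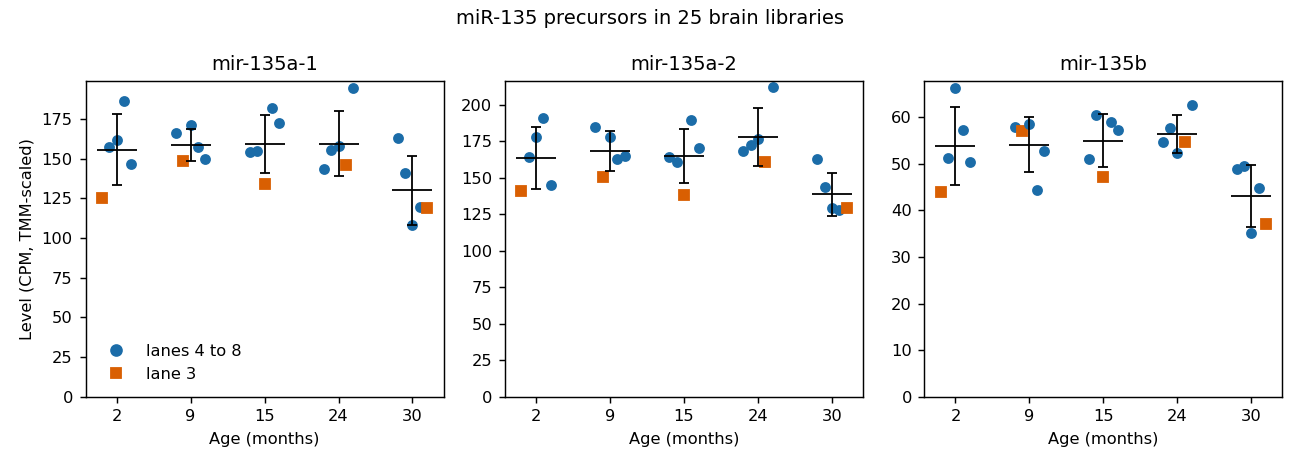
Level of each miR-135 precursor in CPM (vertical axis, from 0) in the 5 animals of each age in months (horizontal axis); dots are libraries, squares those of lane 3, and bars give the mean and SD (n = 5). The means lie between 156 and 159.6 CPM from 2 to 24 months and at 130.1 CPM at 30 months for mir-135a-1, with the same shape for the other members.

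In the order of the means, 30 months was lowest for each member, followed by 2 months. The gap between 30 and 2 months was 25.6 CPM for mir-135a-1, 24.9 CPM for mir-135a-2 and 10.7 CPM for mir-135b, in each case more than the larger of the SDs of both ages (22.3, 21.4 and 8.40 CPM). The other neighbours in that order differed by 0.0960 to 9.59 CPM, less than their SDs.

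Fold changes were taken from a quasi-likelihood fit in edgeR, with a mean per age, across all 425 precursors. Between 30 and 24 months the log2 fold change was -0.29 ± 0.11 for mir-135a-1, -0.36 ± 0.10 for mir-135a-2 and -0.39 ± 0.11 for mir-135b (SE, n = 5 per age), so that the levels at 30 months were 0.815, 0.779 and 0.763 times those at 24 months. Between 30 and 2 months the log2 fold changes were -0.26 ± 0.11, -0.24 ± 0.10 and -0.32 ± 0.11 in the same order of members. These comparisons share the 30-month animals and are not separate observations. The median over all precursors tested was 0.00 between 30 and 24 months and 0.05 between 30 and 2 months.

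Of the 3 members, 2 (mir-135a-2 and mir-135b) were past an adjusted p of 0.05 between 30 and 24 months, where 8.71% of all precursors were past it in either direction, 2.59% as lower and 6.12% as higher. Between 30 and 2 months 1 member (mir-135b) was past it, against 36.9% of all precursors in either direction, 17.9% as lower and 19.1% as higher. Between 30 and 24 months all 5 older animals lay below all 5 younger ones for 1 of the 3 members, mir-135b, and for 2.35% of all precursors. Between 30 and 2 months this held for 0 of the 3 members and 11.1% of all precursors. The family was picked with these comparisons known, so nothing is read from the counts.

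In the earlier steps the members differed by less than their standard error, except mir-135a-2 between 24 and 15 months (0.11 ± 0.10). The log2 fold changes lay between 0.01 and 0.04 between 9 and 2 months, between -0.03 and 0.02 between 15 and 9 months, and between 0.00 and 0.11 between 24 and 15 months, with SEs of 0.10 to 0.11. A straight line over the 5 ages gave -0.08 ± 0.05 for mir-135a-1, -0.06 ± 0.04 for mir-135a-2 and -0.09 ± 0.05 for mir-135b (SE, log2 change per 12 months). Without 2-month replicate 1 the slope of mir-135a-2 was -0.09, over 1.5 times the value with it, and those of mir-135a-1 and mir-135b were -0.12 and -0.13.

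**Figure D2:**
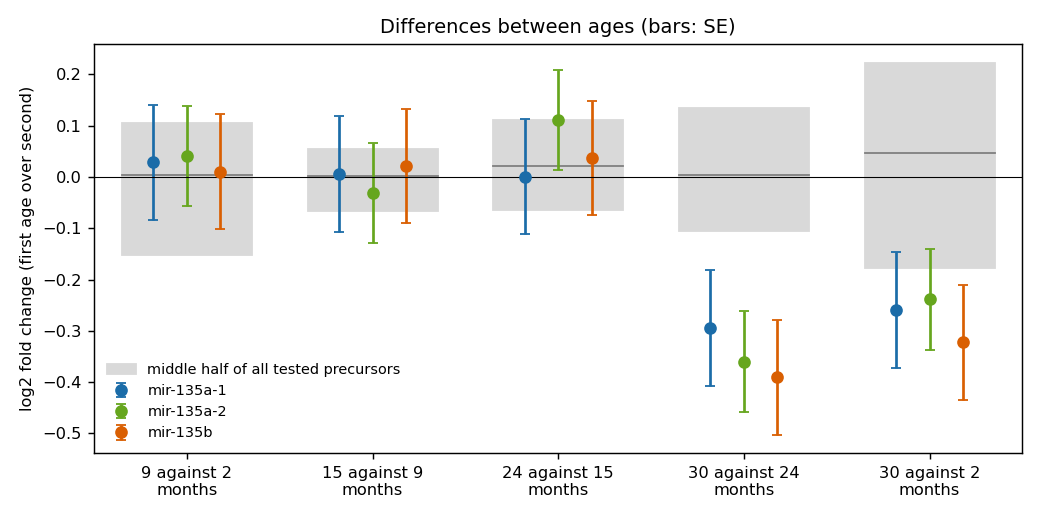
Log2 fold change with SE (vertical axis) of each miR-135 precursor for each step between neighbouring ages and for 30 against 2 months (horizontal axis); grey boxes are the interquartile range of all 425 precursors and the grey line their median. The 3 members lie near 0 in the first 3 steps and between -0.39 and -0.29 between 30 and 24 months.

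Because the mir-135a copies share their 5p arm, their reads were also summed before the fit. Both copies summed stood at -0.34 ± 0.11 (log2, SE) for 30 against 24 months and at -0.26 ± 0.11 for 30 against 2 months. The sum of all 3 members gave -0.35 ± 0.11 and -0.27 ± 0.11 in the same comparisons. The summed family level was 373 ± 49.6 CPM at 2 months, 381 ± 25.5 CPM at 9 months, 379 ± 41.1 CPM at 15 months, 394 ± 43.5 CPM at 24 months and 312 ± 41.8 CPM at 30 months (SD, n = 5).

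The split of reads between the copies was close to even in every library. mir-135a-1 held 45.5% to 50.3% of the reads of both copies, with a median of 48.4%, and the exact Clopper-Pearson 95% interval held 50% in 16 of 25 libraries. mir-135a-2 had more reads than mir-135a-1 in 22 of the 25. The lowest share, 45.5% (95% interval 42.7% to 48.2%, counting error only), was that of 30-month replicate 3. By age the share averaged 48.7% ± 1.32 at 2 months, 48.6% ± 1.04 at 9 months, 49.2% ± 0.674 at 15 months, 47.2% ± 0.735 at 24 months and 48.2% ± 1.78 at 30 months (SD, n = 5). How reads with several matches were counted is not given in the sources used here, so these copies are reported as uncertain and not as separate measurements of their loci.

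The proportion of mir-135b to the mir-135a copies overlapped between all ages. The log2 ratio of mir-135b to the summed copies averaged -2.63 ± 0.138 at 30 months and -2.56 ± 0.137 at 2 months (SD, n = 5), and -2.59 ± 0.164, -2.55 ± 0.109 and -2.57 ± 0.102 at 9, 15 and 24 months. The range over all 25 libraries was -2.84 to -2.35, and the ages overlapped. As a description of these 25 libraries, the log2 levels of mir-135a-1 and mir-135a-2 had a Pearson r of 0.934 and a Spearman rho of 0.898. Those of mir-135a-1 and mir-135b had an r of 0.820 and a rho of 0.722, and those of mir-135a-2 and mir-135b an r of 0.805 and a rho of 0.797. With the age means removed, but not lane, the 3 values of r were 0.930, 0.719 and 0.676, so the members varied together among animals of 1 age too. Animals of 1 age lie in different lanes, and the part of lane in these values was not tested. The mir-135a copies may share reads, and all members share the scaling of each library. Whether mir-135b, 1 letter apart over the 5p arm, also shared reads with them is not known, as the aligner is not given.

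**Figure D3:**
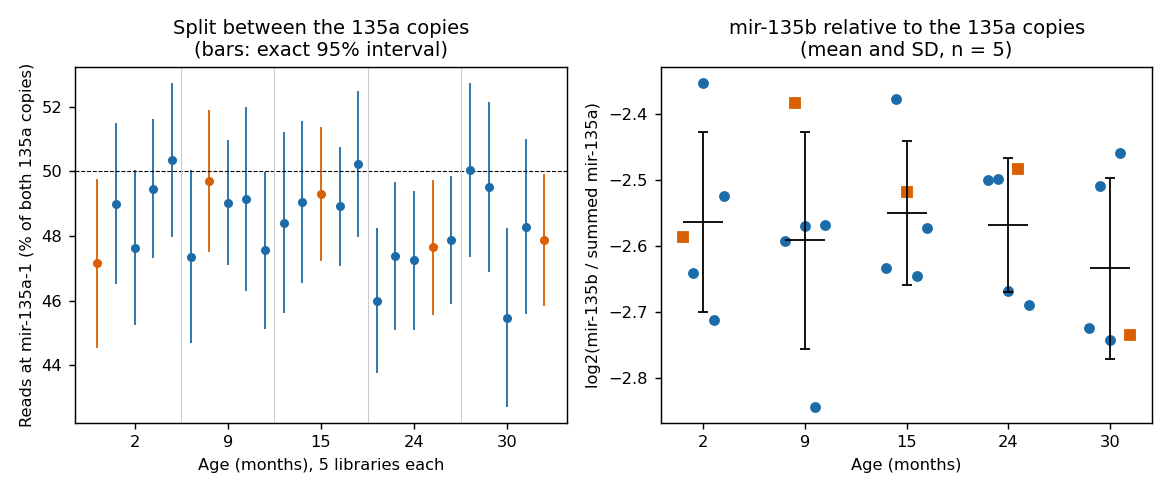
Left, reads at mir-135a-1 as a percentage of both mir-135a copies in each library, grouped by age, with exact 95% intervals and a dashed line at 50%; right, log2 ratio of mir-135b to the summed mir-135a copies (vertical axis) by age in months, with mean and SD. Orange marks lane 3. The split stays between 45.5% and 50.3%, and the ratio overlaps between all ages.

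Sequencing lane played no part in picking the family and could be tested. In a fit with lane beside age, the lane terms gave an F of 4.06 for mir-135a-1, 4.59 for mir-135a-2 and 1.56 for mir-135b. The adjusted p of edgeR's quasi-likelihood test was 0.0605, 0.0414 and 0.407 for them, so that 1 of 3 members was called, against 17.9% of all precursors. The log2 difference from the mean of the same age averaged -0.17 for each mir-135a copy and -0.13 for mir-135b over the 5 libraries of lane 3. Over those of lane 4 it averaged 0.16, 0.14 and 0.08. In the same order of members it averaged 0.13, 0.10 and 0.07 over lane 5 and 0.04, 0.05 and 0.06 over lane 6. It averaged -0.10, -0.07 and -0.11 over lane 7, and -0.02, -8.23e-05 and 0.05 over lane 8. The 30-month replicates 1 to 5 were in lanes 5, 6, 7, 8 and 3, so lane and animal cannot be told apart among them. For mir-135b, 9-month replicate 2 of lane 3 lay above its age mean and 2-month replicate 2 of lane 4 below. Lane 4 holds no library of 30 months. Without lane 3 the call of mir-135a-2 was lost (adjusted p = 0.664), as it was in 6 of 25 refits without 1 library, while mir-135a-1 passed in 14 of the 25.

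The older ages were also compared within lanes, where each lane holds at most 1 library of an age. In the 4 lanes that held both 30 and 24 months, each member was lower at 30 months in each lane. The log2 difference ran from -0.52 to -0.02 for mir-135a-1, from -0.46 to -0.23 for mir-135a-2 and from -0.71 to -0.14 for mir-135b. In the 4 lanes that held both 30 and 2 months it ran from -0.44 to 0.01 for mir-135a-1, with lane 5 at 0.01, from -0.41 to -0.12 for mir-135a-2 and from -0.51 to -0.20 for mir-135b. With lane as a covariate the log2 fold changes between 30 and 2 months were -0.23, -0.21 and -0.32. Those between 30 and 24 months were -0.29, -0.35 and -0.40 in that fit.

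**Figure D4:**
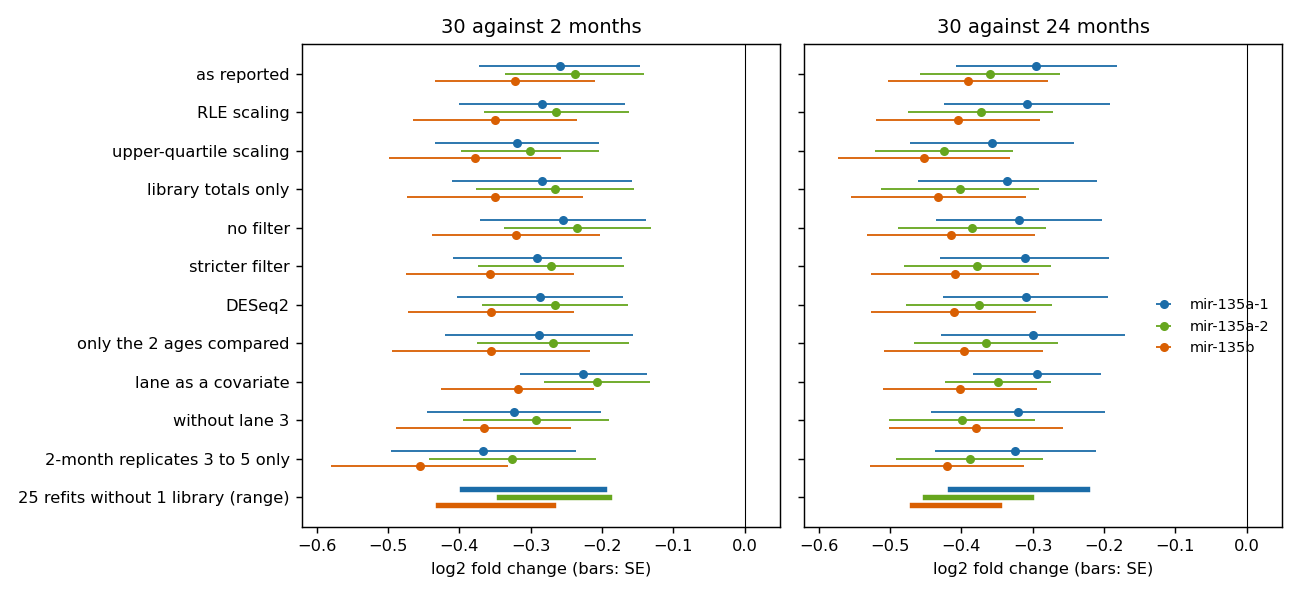
Log2 fold change with SE (horizontal axis) of the 3 miR-135 precursors between 30 and 2 months (left) and between 30 and 24 months (right) under each processing setting (vertical axis); thick lines at the bottom give the range over 25 refits that each leave out 1 library. Each value lies below 0.

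Of the miRNA genes within 100 kb of a member, both are in the count table. mir-1251 lies within the Rmst locus like mir-135a-2, 64955 bases away on the minus strand of chromosome 10. Its level was 19.0 ± 3.96 CPM at 30 months, 22.6 ± 4.86 CPM at 24 months and 18.1 ± 3.77 CPM at 2 months (SD, n = 5). Its log2 fold change was -0.24 ± 0.18 between 30 and 24 months (adjusted p = 0.478) and 0.07 ± 0.18 between 30 and 2 months (adjusted p = 0.758), both from the edgeR fit. let-7g, a let-7 miRNA, lies 24627 bases from mir-135a-1 and stood at 0.11 ± 0.10 between 30 and 24 months (adjusted p = 0.605) and at 0.05 ± 0.10 between 30 and 2 months (adjusted p = 0.736). Neither passed the test in the fit reported, and let-7g passed between 30 and 2 months in 1 of 35 alternatives, without lane 3 (0.19, adjusted p = 0.0201).

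The precursors most like the summed family over the 25 libraries, among all others with a mean of at least 10 CPM, were mir-7a-2, mir-653, mir-664, mir-192 and mir-7a-1. Their Pearson r with the summed family was 0.733, 0.724, 0.675, 0.667 and 0.660, where the median over those compared was -0.08. Spearman's rho was 0.672, 0.636, 0.678, 0.552 and 0.6 in the same order. mir-7a, a miRNA of neurons and neuroendocrine cells known to repress alpha-synuclein, comes from copies with the same mature sequence. Without the 2 libraries farthest from the median of the family, 30-month replicates 3 and 5, r was 0.680, 0.623, 0.642, 0.462 and 0.663. With age and lane means both removed, r was 0.320 for mir-7a-2 and 0.233 for mir-7a-1, against 0.575 for mir-653, 0.792 for mir-664 and 0.524 for mir-192. These are descriptions of a ranking and carry no p, and the 25 libraries share lanes and scaling.

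These 5 precursors had their own age values. Between 30 and 24 months mir-7a-2 stood at -0.28 ± 0.10 (SE, adjusted p = 0.0990), mir-7a-1 at -0.20 ± 0.10 (adjusted p = 0.222) and mir-653 at -0.79 ± 0.27 (adjusted p = 0.0734) in the edgeR fit. mir-664 stood at -0.09 ± 0.07 (adjusted p = 0.482) and mir-192 at -0.07 ± 0.07 (adjusted p = 0.634). Between 30 and 2 months none of the 5 passed, with log2 fold changes from -0.09 to 0.03 (adjusted p from 0.680 to 0.952).

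**Figure D5:**
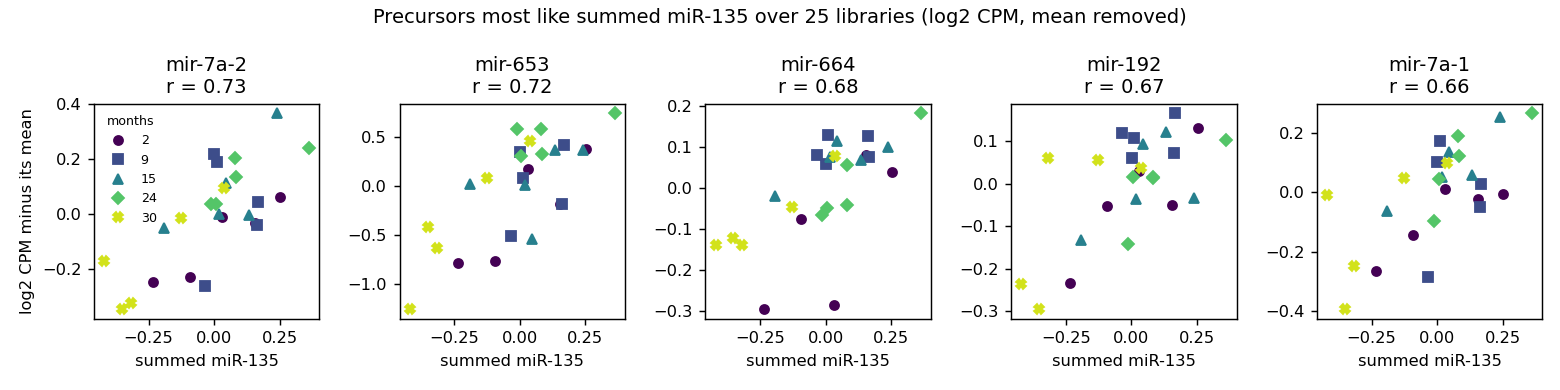
Log2 CPM of the 5 precursors most like the family (vertical axes, mean removed) against log2 CPM of the summed miR-135 precursors (horizontal axes, mean removed) in 25 libraries, marked by age in months. Pearson r lies between 0.660 and 0.733, and 30-month replicates 3 and 5 sit at the low end of the family level.

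Other miRNAs known from axon growth, synapses or the serotonin system did not share 1 direction. The lists do not separate miRNAs that promote a process from those that restrain it. Of 15 precursors known from axon growth, all tested, 5 fell and 1 rose between 30 and 2 months in the edgeR fit, with a median log2 fold change of -0.10 against 0.05 over all precursors, of which 17.9% fell and 19.1% rose. mir-132, which promotes axon branching and is induced by neuronal activity, fell to 3464 ± 208 CPM at 30 months, against 4396 ± 198 CPM at 2 months (log2 fold change -0.34 ± 0.06, adjusted p = 9.77e-05). mir-17 fell (-0.29 ± 0.08, adjusted p = 0.00690), as did mir-30b (-0.27 ± 0.09, adjusted p = 0.0257) and both mir-138 copies. The rise was mir-21a, a miRNA induced by injury and inflammation (0.47 ± 0.07, adjusted p = 1.34e-05). Between 30 and 24 months 1 of the 15 passed, mir-30b (-0.31 ± 0.09, adjusted p = 0.0437, lost in 5 of 35 alternatives). Of all precursors 2.59% passed as lower there and 6.12% as higher. mir-17 stood at -0.24 ± 0.08 there (adjusted p = 0.0678) and passed in 17 of 35 alternatives.

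Of 16 precursors known from dendritic spines or synaptic plasticity, 6 fell and 3 rose between 30 and 2 months, with a median of 0.07, beside the 17.9% and 19.1% over all precursors. mir-212, the partner of mir-132, fell (-0.48 ± 0.06, adjusted p = 3.90e-06), and mir-188, which acts on spines through neuropilin-2 in rodents, fell too (-0.37 ± 0.12, adjusted p = 0.0153). mir-29a rose (0.25 ± 0.07, adjusted p = 0.0105), a call lost under upper-quartile scaling, with only both ages in the fit and in 4 of 25 refits without 1 library. Of 3 precursors known from the serotonin system 2 passed as higher between 30 and 2 months, beside 19.1% of all precursors. mir-16-1 and mir-16-2, whose mature miRNA represses the serotonin transporter, stood at 0.20 ± 0.08 each (adjusted p = 0.0443 and 0.0437). As copies with the same mature miRNA, they may share reads. The other member, mir-96, stood at 0.71 ± 0.90 (adjusted p = 0.569). The call of mir-16-1 was lost in 23 of 35 alternatives and that of mir-16-2 in 22 of 35. Each was lost in 17 of 25 refits without 1 library, under RLE and upper-quartile scaling and in DESeq2. No precursor of these last 2 lists passed between 30 and 24 months in the fit reported, where mir-188 stood at -0.36 ± 0.12 (adjusted p = 0.0517), but mir-188 passed in 24 of 35 alternatives. Over all precursors 8.71% passed in that comparison. The lists share members, mir-132 among them, and were chosen with earlier results known. They also count copies of a miRNA as separate rows, such as both mir-138 copies, which may share reads.

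Markers of other cells changed over the same intervals. All 3 oligodendrocyte precursors rose in both comparisons, the call of mir-338 between 30 and 24 months (adjusted p = 0.0444) being lost in 29 of 35 alternatives (adjusted p up to 0.202), and their sum was 3612 to 4554 CPM at 30 months, against 2870 to 3405 CPM at 24 months and 2487 to 2913 CPM at 2 months. mir-219a-2, which promotes oligodendrocyte differentiation, stood at 0.57 ± 0.07 between 30 and 24 months (adjusted p = 2.84e-06). Of 18 neuron-enriched precursors 6 fell and 2 rose between 30 and 2 months, and 1 rose between 30 and 24 months, mir-383 (0.31 ± 0.08, adjusted p = 0.0241, lost in 8 of 35 alternatives). Copies count as separate rows here, and the 6 include both mir-128 copies and both mir-138 copies, which may share reads. Over all precursors 17.9% fell and 19.1% rose between 30 and 2 months, and 6.12% rose between 30 and 24 months. The neuron-enriched precursors summed to 80848 to 99447 CPM at 30 months, against 77386 to 87029 CPM at 24 months. mir-128-1, a regulator of neuronal excitability, fell between 30 and 2 months (-0.37 ± 0.09, adjusted p = 0.00301), a call lost with 2-month replicates 3 to 5 only (adjusted p = 0.0513).

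Of 6 microglia and leukocyte precursors 4 rose and 1 fell between 30 and 2 months, beside 19.1% and 17.9% of all precursors. mir-146a, a brake on inflammatory signalling, rose (0.99 ± 0.13, adjusted p = 3.90e-06), and mir-150, of mature lymphocytes, fell (-0.50 ± 0.07, adjusted p = 1.37e-05). Between 30 and 24 months mir-150 alone of the 6 passed in the fit reported (-0.26 ± 0.07, adjusted p = 0.0261, lost in 3 of 35 alternatives), and the sums were 2382 to 2879 CPM at 30 months and 2268 to 2761 CPM at 24 months. In that comparison 2.59% of all precursors passed as lower and 6.12% as higher. Of 6 choroid plexus or ciliated-cell precursors 3 rose between 30 and 2 months, beside 19.1% of all precursors. They were mir-449a (0.72 ± 0.17, adjusted p = 0.00153), mir-449c (0.61 ± 0.21, adjusted p = 0.0250, lost in 13 of 34 alternatives) and mir-34c (0.27 ± 0.08, adjusted p = 0.0152, lost in 8 of 35), all of multiciliated cells. Of 2 tested Hox-cluster precursors 1 rose, mir-10a (1.09 ± 0.17, adjusted p = 2.21e-05). Neither list held a call between 30 and 24 months, where 8.71% of all precursors were called.

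No call was made in either comparison among 4 erythroid, 3 vascular and 6 olfactory or pituitary precursors. Of all precursors 36.9% were called between 30 and 2 months and 8.71% between 30 and 24 months. Between 30 and 2 months the SE was 1.14 for mir-141 and 0.99 for mir-200a, against 0.14 for mir-375. A missing call among the olfactory or pituitary precursors thus does not show that their level was unchanged. The summed olfactory and pituitary markers were 412 to 2165 CPM at 30 months, 214 to 940 CPM at 24 months and 276 to 2111 CPM at 2 months, with a median log2 fold change of 1.91 between 30 and 24 months. Of all the marker lists, mir-196a-1 of the Hox list was at 0. The part of these cell types in the miR-135 levels was not tested.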

How the data were processed

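Libraries came from total RNA and a TruSeq small RNA kit, per the labels' protocols. The values are raw counts for each miRNA precursor as deposited by the authors, with both arms of a hairpin together, in 25 libraries, and every column was used. Tools in the submitters' processing notes are SAMtools 1.3.1-9, Trimmomatic 0.36 and bcl2fastq 1.8.4. The aligner, the counting tool, the genome build and the treatment of reads with several matches: not given in the sources used here.

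Groups are the labelled ages; replicate numbers were given in accession order and serve as names only. Replicates of 1 age differed by a chi-square per degree of freedom of 19.6 to 304 over 50 pairs, so none was treated as a repeat deposit. The filterByExpr filter kept 425 precursors, holding at least 99.9856% of each library's counts, and TMM factors ran from 0.952 to 1.04. edgeR 4.0.16 in R 4.3.3 fitted all 25 libraries with a mean per age by the quasi-likelihood method; Benjamini-Hochberg adjustment ran over all 425, with a threshold of 0.05. The SE is the size of a log2 fold change divided by the square root of F. Lane was tested beside age. Likeness and ratios used log2(CPM + 0.5). DESeq2 1.42.0 was an alternative; limma 3.58.1, Python 3.11.15, Biopython 1.88 and matplotlib 3.10.9 were used beside these. The code of the fits was run on counts simulated from the means and spread of these data, with no lane differences in the age runs. That does not test whether the model suits these libraries. PCR reads carry no molecular identifiers, so intervals cover counting error only.

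Named precursors were the 3 members, others sharing the 5p seed, miRNA genes within 100 kb, the 5 highest Pearson r, and up to 4 called members per list with the largest change. Members, lists and rules were chosen with earlier results of these data known.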

Additional observations from a re-analysis of the deposited data

Results flagged for a closer look

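Of 30 groups of 5 libraries checked for a sample far from the others, 2 held one, and chance alone gives about 5% of groups. Both are the same library, 24-month replicate 5. Its mir-135a-1 level was 195 CPM, against 143 to 158 CPM in the other 4 animals of 24 months, and its summed family level was 469 CPM, against 362 to 387 CPM. This library was sequenced in lane 4, where the mir-135a copies lay above their age means. Without it the log2 fold change between 30 and 24 months was -0.22 ± 0.12 for mir-135a-1, -0.30 ± 0.11 for mir-135a-2, -0.36 ± 0.13 for mir-135b and -0.27 for the summed family (SE where given).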

How the results depend on the processing

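Over 35 alternatives the 3 members and their sums were below 0 between 30 and 2 and between 30 and 24 months in each of 350 values. These values reuse the same libraries, the sums hold the members, and both comparisons share the 30-month animals. The family was picked with these comparisons known, so nothing is read from that count. Between 30 and 24 months, refits without 1 library gave -0.42 to -0.22 for mir-135a-1, -0.45 to -0.30 for mir-135a-2 and -0.47 to -0.35 for mir-135b. Between 30 and 2 months they gave -0.40 to -0.20, -0.35 to -0.19 and -0.43 to -0.27. Over all alternatives the slopes per 12 months ran from -0.12 to -0.06, from -0.09 to -0.04 and from -0.14 to -0.07, lowest with 2-month replicates 3 to 5 only. The largest gaps between 30 and 24 months for the mir-135a members came without 30-month replicate 1 and the smallest without 24-month replicate 5. The alternatives for neighbouring ages with DESeq2 or 2 ages only, lane with 2-month replicates 3 to 5, and the ratio under other settings were chosen after seeing the data.

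Precursors called between 30 and 24 months (37) numbered 20 with no filter and 19 with only both ages in the fit, and 16 (without 24-month replicate 5) to 53 (without 30-month replicate 1) in refits. Calls ran 26 higher to 11 lower there, against 11 to 19 under upper-quartile scaling 20 to 23 with library totals only and 27 to 19 in DESeq2. Between 30 and 2 months (157) they ran 81 to 76, and 89 to 83 with lane as a covariate. They ran 50 to 91 under upper-quartile scaling, 68 to 89 under RLE scaling, 70 to 83 with library totals only and 69 to 86 in DESeq2. They ran 80 to 81 with no filter, 63 to 76 with the stricter filter and 51 to 68 with both ages only. Without lane 3 they ran 79 to 84, and with 2-month replicates 3 to 5 only 68 to 76. The shares of 19.1% higher and 17.9% lower given above are those of the fit reported. Between 9 and 2 months (33) there were 15 with no filter, 9 with both ages only, 50 with lane as a covariate, 9 with 2-month replicates 3 to 5 only, and 19 to 39 in refits. Between 15 and 9 months edgeR called 0 (27 at an unadjusted p under 0.05), library totals 1, DESeq2 2 and refits 0 to 1. Between 24 and 15 months edgeR called 1, upper-quartile scaling 0, no filter 0 and the set without lane 3 also 0 (46 at an unadjusted p under 0.05 in edgeR), DESeq2 2, lane as a covariate 2 and refits 0 to 1. Lane calls (76) fell to 2 without lane 3.

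The lane F of mir-135a-1 was 4.47 under RLE scaling (adjusted p = 0.0445), 4.80 with the stricter filter (adjusted p = 0.0278), 5.28 with 2-month replicates 3 to 5 only (adjusted p = 0.0316) and 3.71 to 6.26 in refits. That of mir-135a-2 was 3.39 under upper-quartile scaling (adjusted p = 0.109), 2.20 without lane 3 (adjusted p = 0.664) and 4.05 to 6.61 in refits. Its call was lost without 2-month replicate 1, 9-month replicate 2, 15-month replicate 3 or 24-month replicate 4, all of lane 3. The call was also lost without 15-month replicate 4 or 24-month replicate 5, both of lane 4. The cause was not tested. No pairing by animal was possible because replicate numbers were given in accession order and the titles share no animal number between ages. Lane, which ages do share, was used as a covariate and for differences within lanes. At the lowest count of each member, counting error alone was 4.15%, 4.01% and 7.69%.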
